A study of Mus musculus with 8 samples.

Results

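The 9 genes described here belong to neutrophil attraction and retention, and were followed across arrays of peritoneal macrophages from zymosan-treated mice: the CXC chemokines Cxcl1, Cxcl2, Cxcl3, Cxcl5 and Ppbp, the platelet chemokine Pf4, the receptor Cxcr2, and the pair Cxcl12 and Cxcr4. They were chosen by name, as the genes to which the array design assigns 11 probes out of 56605. After a filter on dim probes, 7 of the 9 genes could be tested among 18603 genes of the array. Cxcl5 and Cxcl12 did not pass that filter and are described by their levels.

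RNA was measured on 8 one-colour Agilent arrays, 4 per genotype. One genotype was wild-type (wt) and the other lacked Card9 (Card9-/-), an adaptor that links fungal pattern receptors of the C-type lectin family to NF-kB. Mice of both genotypes were given thioglycolate, an irritant that draws macrophages into the peritoneum (1 ml of 3%, 4 days before collection), and zymosan, a yeast cell wall preparation, at 500 mg/kg for 4 h. Peritoneal cells of 4 or 5 mice per group were freed of red cells, seeded, and washed after 3 h to leave the adherent ones. Zymosan was common to both genotypes and no untreated animals were analysed here, so the values do not show a response to zymosan. Strain background, age and the part of Card9 deleted are not given in the sources used here. It is also not given whether an array holds 1 mouse or a pool, so the p-values measure only the spread between these arrays, which may be technical.

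CXC chemokines carry 2 cysteines separated by 1 residue near their start. Those with the motif Glu-Leu-Arg before the cysteines bind Cxcr2, and in the mouse Cxcl1, Cxcl2, Cxcl3, Cxcl5 and Ppbp are of that kind. Macrophages, mast cells and mesothelium release them early in peritonitis, and neutrophils follow them out of the blood. Cxcl12 acts the other way: through Cxcr4 it holds neutrophils in the bone marrow.

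Of the 9 genes, 6 lie in one row on chromosome 5. On mm9, the build of the array design, their probes span 144.0 kb (chr5:91190490-91334593) in the order Cxcl5, Ppbp, Pf4, Cxcl3, Cxcl1 and Cxcl2. The sequence upstream of 4 of them is shown because Cxcl1, Cxcl2, Cxcl3 and Pf4 were highest on the same arrays, and because the regions of the first 3 hold a common run of bases that that of Pf4 lacks. The windows are the 250 bases before the RefSeq start on GRCm38.p6, plus strand, 5′ to 3′: chr5:90890995-90891244 for Cxcl1, chr5:90903649-90903898 for Cxcl2, chr5:90785851-90786100 for Cxcl3 and chr5:90772185-90772434 for Pf4. Capitals mark the longest run shared by the Cxcl1, Cxcl2 and Cxcl3 windows.
Cxcl1: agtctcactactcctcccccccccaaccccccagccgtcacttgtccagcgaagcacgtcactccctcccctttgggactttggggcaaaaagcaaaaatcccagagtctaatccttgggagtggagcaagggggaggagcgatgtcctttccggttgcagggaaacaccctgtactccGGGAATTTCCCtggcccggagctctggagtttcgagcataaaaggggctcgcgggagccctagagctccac
Cxcl2: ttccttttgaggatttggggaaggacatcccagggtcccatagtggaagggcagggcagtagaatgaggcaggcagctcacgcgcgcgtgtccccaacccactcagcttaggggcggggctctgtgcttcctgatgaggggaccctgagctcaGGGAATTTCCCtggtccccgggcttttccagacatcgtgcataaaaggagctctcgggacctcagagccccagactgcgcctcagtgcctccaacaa
Cxcl3: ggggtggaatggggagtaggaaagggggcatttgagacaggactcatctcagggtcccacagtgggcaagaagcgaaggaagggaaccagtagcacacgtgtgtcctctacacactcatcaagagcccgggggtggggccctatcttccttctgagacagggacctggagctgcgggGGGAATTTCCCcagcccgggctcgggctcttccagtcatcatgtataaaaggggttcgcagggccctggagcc
Pf4: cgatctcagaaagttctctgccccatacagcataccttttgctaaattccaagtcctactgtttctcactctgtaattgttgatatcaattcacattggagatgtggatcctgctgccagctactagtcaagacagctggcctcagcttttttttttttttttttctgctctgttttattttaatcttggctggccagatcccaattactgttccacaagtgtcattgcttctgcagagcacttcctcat

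The shared run was GGGAATTTCCC, 11 bases long, which has the form of a binding site of NF-kB, the factor known to induce Cxcl1 and Cxcl2. Sought on both strands, it stood once in each of the 3 windows, on the forward strand, 71 to 61 bases before the start in Cxcl1, 97 to 87 in Cxcl2 and 73 to 63 in Cxcl3. It was not found in the windows of Pf4, Ppbp, Cxcr2, Cxcl12 or Cxcr4. It was present in 14 of all 32851 RefSeq windows of the same length (0.0426%), a share that describes how rare the run is and tests nothing, because it was picked as shared. RefSeq windows were at hand for 8 of the 9 members. A match describes letters in a window and does not show that a factor binds there.

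Levels are given as log2 of the processed signal relative to the 75th percentile of the array's own spots, so that 0 is the signal of that percentile. A level is compared only with other levels of the same probe, because probes differ in how they bind. A spot was called well above background by the scanner software. Between 28326 and 33503 of the 59305 spots per array reached that mark (47.8% to 56.5%) and 0 were saturated. The lowest level so marked lay between -4.84 and -4.31 in wt and between -4.17 and -3.47 in Card9-/-. The number of arrays limits the precision. Every wt array and the fourth Card9-/- array were on slide 1, Card9-/- replicates 1 and 3 on slide 2, and Card9-/- replicate 2 on slide 3.

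Some libraries stood apart. At the brighter of its probes, Card9 itself could be seen over background in 3 wt and 0 Card9-/- libraries. The exception was wt replicate 1, by its label, with a signal of 4.75 that lay within the 3.60 to 11.9 of Card9-/-. At the other Card9 probe 2 wt and 0 Card9-/- libraries were above background. There wt replicate 2 (20.2) lay near Card9-/- replicate 4 (18.5). Eif2s3y, Ddx3y and Uty, of the Y chromosome, were above background in 4 Card9-/- and 0 wt libraries, while Xist showed the reverse. Sex and genotype therefore cannot be told apart in any value below. A further probe each of Ddx3y and Uty was above background in 0 libraries of either genotype. The arrays labelled wt replicate 1 and wt replicate 2 were nearly alike (Pearson r = 0.985 over genes), against 0.822 to 0.921 for the other wt pairs. Genes are not independent replicates, and both arrays were kept as separate samples.

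None of the 7 members tested differed between genotypes beyond the spread of the arrays. By limma with Benjamini-Hochberg adjustment over all genes, 0 of 7 passed an adjusted p of 0.05, where 5 of 18603 genes did (0.0269%). At an unadjusted p under 0.05 the members again numbered 0, beside 1344 genes (7.22%). No member separated the genotypes completely, which 971 genes (5.22%) did. The difference, Card9-/- minus wt, was positive for 3 members and negative for 4, with a median of -0.34 against -0.088 over all genes tested. On slide 1, the one slide with both genotypes, the contrast rests on a single Card9-/- array, replicate 4. There the difference was 0.63 for Cxcl1, -0.045 for Cxcl2, -0.60 for Cxcl3, 5.39 for Ppbp, 0.077 for Pf4, 0.99 for Cxcr2 and 0.40 for Cxcr4, and none passed (adjusted p of 0.267 to 0.997). Sign thus changed for Cxcl1 and Pf4, and limma's array weights changed it for every member tested except Cxcr2. The variation between arrays of one genotype was large: for Cxcl1, Cxcl3, Pf4 and Cxcr2 the SD of the wt arrays lay at the 98.0th to 99.7th percentile of all genes tested.

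**Figure D1:**
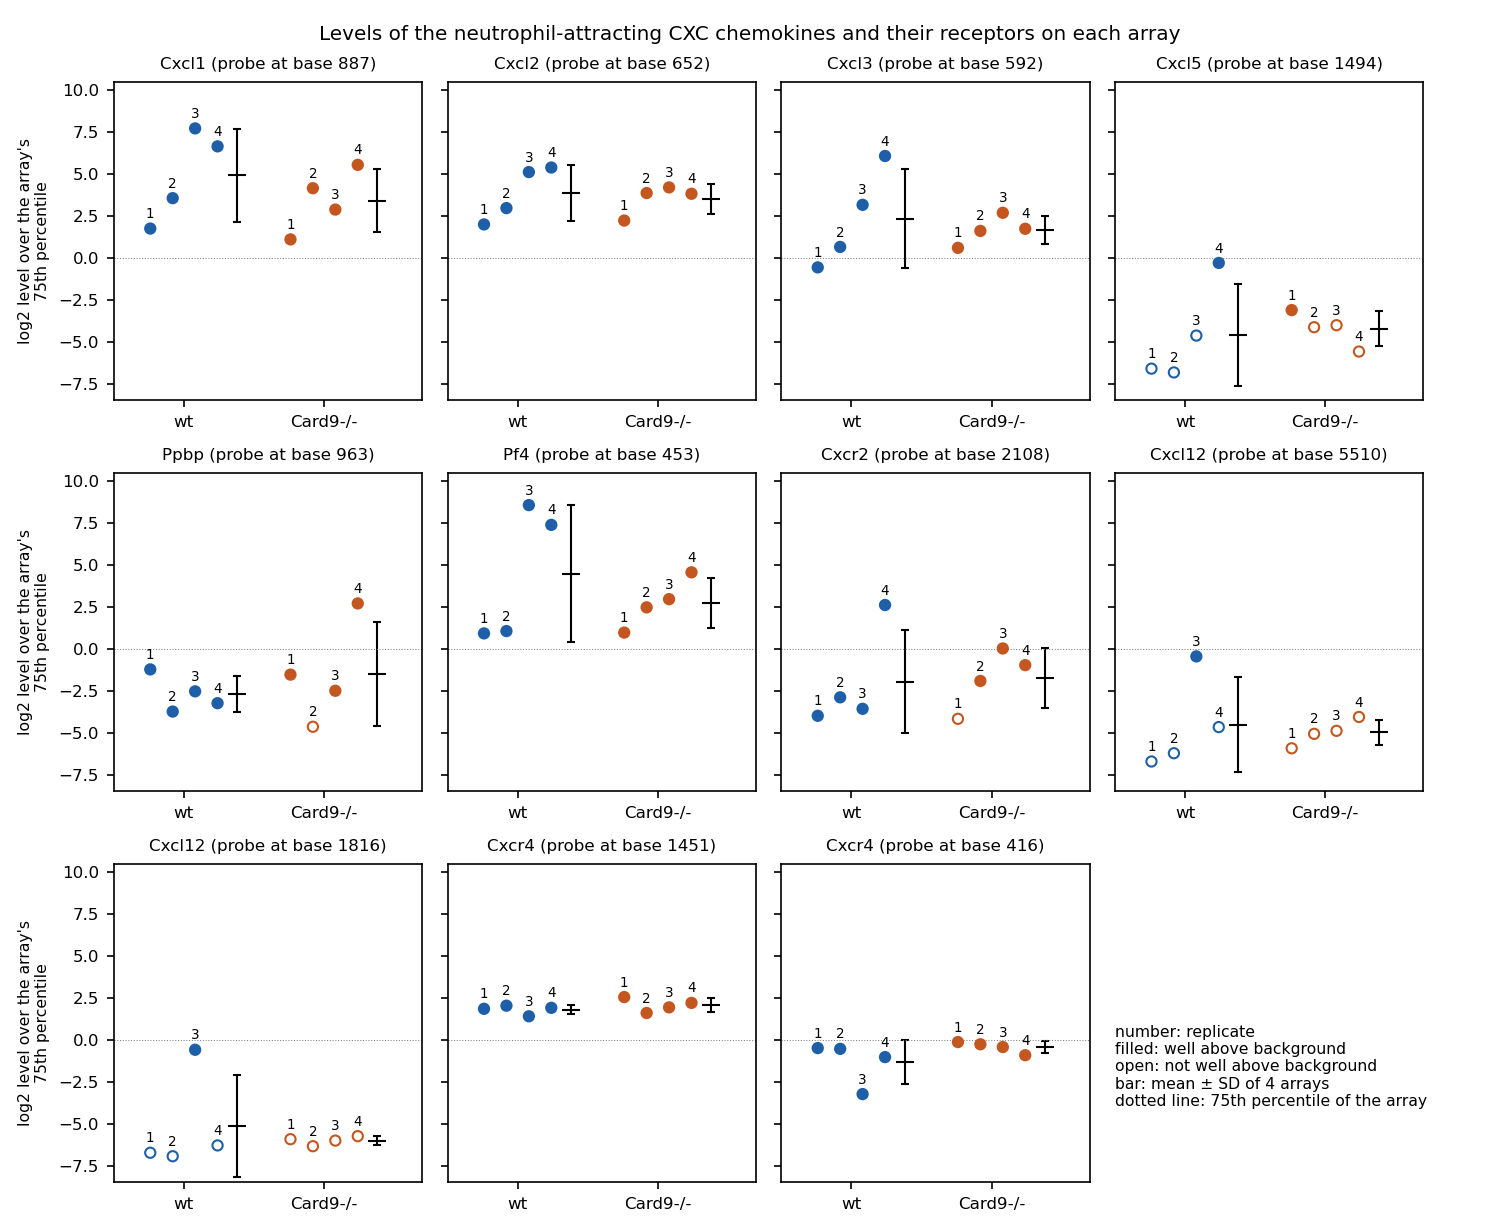
Level of each of the 11 probes on each array (log2, relative to the array's 75th percentile), wt in blue and Card9-/- in orange, with replicate numbers; open symbols were not well above background and bars are mean ± SD of 4 arrays. Cxcl1, Cxcl2, Cxcl3 and Pf4 are highest in wt replicates 3 and 4, Ppbp is high in Card9-/- replicate 4 alone, and the Cxcr4 probe at base 1451 stays between 1.40 and 2.54.

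Cxcl1, the chemokine also known as KC, was read by a probe at base 887 of its transcript (chr5:91322080-91322139, mm9, plus strand). Its level in wt replicates 1 to 4 was 1.74, 3.55, 7.71 and 6.64, and in Card9-/- replicates 1 to 4 it was 1.09, 4.14, 2.87 and 5.53. Wt replicates 3 and 4 were the highest of the 8 arrays, while wt replicate 1 was lower than 3 of the 4 Card9-/- arrays, so the genotypes overlapped. The highest array exceeded the lowest 97.9-fold. Means were 4.91 ± 2.75 for wt and 3.41 ± 1.89 for Card9-/- (SD, n = 4 each), a log2 difference of -1.50 (SE 1.37, 95% interval -4.57 to 1.57, limma adjusted p = 0.866). The exact two-sided permutation test over the 70 assignments of arrays gave p = 0.40.

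Cxcl2, or MIP-2, which macrophages release within hours of contact with microbial products, varied less. Its probe (base 652, chr5:91334534-91334593) gave levels of 1.99, 2.96, 5.10 and 5.38 in wt and 2.21, 3.85, 4.19 and 3.81 in Card9-/-. The 4 Card9-/- arrays lay inside the range of the wt arrays, which again had replicates 3 and 4 at the top. Means were 3.86 ± 1.65 and 3.52 ± 0.885 (SD, n = 4 each), and the difference was -0.34 (SE 0.80, 95% interval -2.14 to 1.47, adjusted p = 0.961; exact permutation p = 0.686). It turned positive without wt replicate 3 (0.078), wt replicate 4 (0.17) or Card9-/- replicate 1 (0.096).

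Cxcl3 (base 592, chr5:91216694-91216753), the closest relative of both, gave -0.57, 0.64, 3.15 and 6.06 in wt and 0.59, 1.60, 2.68 and 1.73 in Card9-/-. Wt replicate 4 was 99.5-fold above wt replicate 1, and these 2 arrays bracketed all the others. The difference of -0.67 (SE 1.26, 95% interval -3.50 to 2.15, adjusted p = 0.944; exact permutation p = 0.686) turned to 0.57 without wt replicate 4. Over genes tested, the SD of Cxcl3 was at the 98.6th percentile in wt and at the 71.8th in Card9-/-.

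Cxcl5, which epithelial cells and platelets are known to make, was near the background. Its probe (base 1494, chr5:91190490-91190549) was well above background on 1 wt array, replicate 4, at -0.31, and on 1 Card9-/- array, replicate 1, at -3.12. The remaining levels were -6.83 to -4.64 in wt and -5.59 to -4.02 in Card9-/-, where the order of arrays has no meaning. It was not in the main test. Tested without the filter, its difference was 0.38 (95% interval -2.73 to 3.49, limma adjusted p = 0.914).

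Ppbp, the precursor of the platelet chemokine NAP-2, had a pattern of its own. At its probe (base 963, chr5:91198970-91199029) the level was -1.23, -3.74, -2.54 and -3.24 in wt. In Card9-/- it was -1.54, -4.65, -2.50 and 2.70, and the second of these was not well above background. Card9-/- replicate 4 thus stood alone, and the other arrays of both genotypes overlapped. The difference of 1.19 (SE 1.34, 95% interval -1.82 to 4.20, adjusted p = 0.892; exact permutation p = 0.60) fell to -0.21 without that array. Card9-/- replicate 4 is also the one Card9-/- array on slide 1, where the difference was 5.39. That difference rests on this single array, so the spread within Card9-/- is not measured there.

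Pf4, platelet factor 4, shares the platelet granule with the product of Ppbp, lacks the Glu-Leu-Arg motif and is also made by macrophages. Its probe (base 453, chr5:91202275-91202334) gave 0.91, 1.05, 8.56 and 7.38 in wt and 0.96, 2.47, 2.95 and 4.55 in Card9-/-. Wt replicates 3 and 4 were the highest arrays by a wide margin, Card9-/- replicate 4 came next, and the pair labelled wt replicates 1 and 2 lay with Card9-/- replicate 1 at the bottom. Highest and lowest arrays differed 199.8-fold. Means were 4.48 ± 4.06 and 2.73 ± 1.48 (SD, n = 4 each), with a difference of -1.74 (SE 1.75, 95% interval -5.68 to 2.20, adjusted p = 0.883; exact permutation p = 0.429). Pf4 and Ppbp did not follow each other: the top arrays for Pf4 were at -2.54 and -3.24 for Ppbp, and the top array for Ppbp was the third for Pf4.

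Cxcr2, the receptor that neutrophils use for all the Glu-Leu-Arg chemokines, was read at base 2108 (chr1:74206886-74206945). Levels were -3.99, -2.89, -3.58 and 2.61 in wt and -4.17, -1.92, 0.02 and -0.98 in Card9-/-, the first Card9-/- array being not well above background. Wt replicate 4 stood apart from the other wt arrays, and Card9-/- replicates 2 to 4 lay between. The difference was 0.20 (SE 1.45, 95% interval -3.07 to 3.47, adjusted p = 0.992; exact permutation p = 0.943), and it rose to 1.73 without wt replicate 4 and fell to -0.47 without wt replicate 1. Wt replicate 3, high for Cxcl1, Cxcl2, Cxcl3 and Pf4, was among the lowest arrays for Cxcr2.

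Cxcl12, the stromal chemokine of the retention axis, was well above background on wt replicate 3 alone, at both of its probes. At base 5510 (chr6:117131227-117131286) that array was at -0.46, the rest of wt at -6.72 to -4.67 and Card9-/- at -5.93 to -4.06. At base 1816 (chr6:117125026-117125085) it was at -0.60, with -6.94 to -6.30 in the rest of wt and -6.34 to -5.74 in Card9-/-. Both probes thus picked the same array, and no fold is given because the Card9-/- levels are below background. Without the filter the difference at the gene was -0.47 (95% interval -3.35 to 2.40, limma adjusted p = 0.878).

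Cxcr4, the receptor of Cxcl12, which neutrophils, lymphocytes and macrophages all carry, was the steadiest member. At base 1451 (chr1:130485079-130485138, minus strand) the level was 1.84, 2.03, 1.40 and 1.90 in wt and 2.54, 1.59, 1.93 and 2.20 in Card9-/-. The highest array exceeded the lowest 2.21-fold. The difference was 0.27 (SE 0.35, 95% interval -0.51 to 1.06, adjusted p = 0.906; exact permutation p = 0.314), the narrowest interval of the 7 members. Its SD stood at the 10.8th percentile of genes in wt and the 23.9th in Card9-/-.

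The second Cxcr4 probe, at base 416 (chr1:130486114-130486173), is printed because its level in wt replicate 3 lay far below its other levels.
Cxcr4 base 416: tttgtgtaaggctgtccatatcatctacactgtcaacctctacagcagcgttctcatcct

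It gave -0.50, -0.54, -3.24 and -1.03 in wt and -0.14, -0.27, -0.43 and -0.92 in Card9-/-. Wt replicate 3 was low, so that the highest array exceeded the lowest 8.57-fold, and wt replicate 3 was the lowest array at both probes. The difference was 0.89 (exact permutation p = 0.171). All 11 member probes were distinct: over their 55 pairs the longest shared run was 9 of 60 bases.

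**Figure D2:**
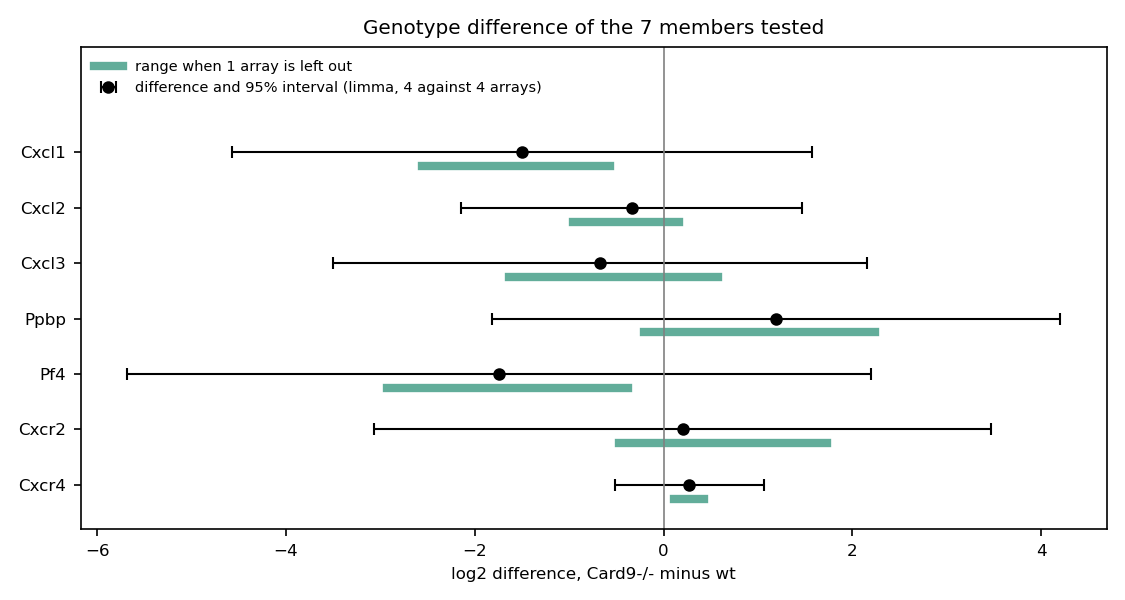
Log2 difference between genotypes (Card9-/- minus wt) for the 7 members tested, with the 95% interval from limma on 4 against 4 arrays (black) and the range of the difference when each array in turn is left out (green). Each interval includes 0; Cxcr4 has the narrowest (-0.51 to 1.06) and Pf4 the widest (-5.68 to 2.20).

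The arrays on which members were high also differed in markers of cell types. RNA of whole adherent populations cannot tell fewer cells of a type from less RNA per cell. Macrophage markers were present on every array: 6 to 10 of the 10 listed genes were well above background in wt and 8 or 9 in Card9-/-. Their mean level over the 9 genes tested was -0.37, -0.10, 5.70 and 4.50 in wt and 1.41, 1.30, 1.69 and 2.15 in Card9-/-. For Adgre1, which encodes the macrophage antigen F4/80, the levels were 0.67, 0.35, 7.72 and 5.92 in wt and 1.62 to 2.42 in Card9-/-. The same 2 arrays, wt replicates 3 and 4, that led for Cxcl1, Cxcl2, Cxcl3 and Pf4 led here by mean level. Itgam departed from this: wt replicate 4 (4.08) was below Card9-/- replicate 4 (4.36) and close to wt replicate 1 (4.07). The part of macrophage content in the levels of these members was not tested.

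The mean level of resident peritoneal macrophage markers set wt replicates 3 and 4 apart too (6 of 7 listed genes tested). It was -1.72, -1.39, 5.19 and 2.89 in wt and -1.24 to 0.35 in Card9-/-. Rarb departed from this, being highest in wt replicate 3 (-0.42) and lowest of all arrays in wt replicate 4 (-5.36). Gata6, the factor that defines these cells, did not pass the filter. Of the macrophage genes tested 2 had a positive difference and 7 a negative one, and of the resident genes 0 and 6; 0 of either list passed the adjusted threshold or an unadjusted p under 0.05 in limma.

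Neutrophil markers, the cells these chemokines draw, were present throughout, with all 14 genes well above background on 7 arrays and 12 on Card9-/- replicate 1. Their mean was 1.38, 1.63, 1.78 and 4.31 in wt and -0.06, 2.32, 2.06 and 3.18 in Card9-/-. Wt replicate 4, the top array for Cxcr2, was the top array for the list, and Card9-/- replicate 1, the lowest for Cxcr2, was the lowest. The order between these ends differed: Card9-/- replicate 3 was above Card9-/- replicates 2 and 4 for Cxcr2 but below both in the list mean. Ly6g, a surface protein used to identify mouse neutrophils, was at 1.82 in wt replicate 4, -0.80 to 0.47 in the other wt arrays and -1.98 to 0.16 in Card9-/-. Not every marker peaked in wt replicate 4. S100a9, Ltf and Camp were highest in Card9-/- replicate 4 (9.27, 3.15 and 4.32, against 8.34, 2.66 and 3.08 in wt replicate 4). Padi4 was highest in wt replicate 3 (6.05), and Csf3r was lowest in wt replicate 4 (5.85). The remaining listed markers were highest in wt replicate 4. In limma 5 markers had a positive and 9 a negative difference, and 0 passed at an adjusted or an unadjusted p of 0.05. The part of neutrophil content in the Cxcr2 levels was not tested.

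Platelet markers were highest on the array highest for Ppbp, which was not the one highest for Pf4. Of 12 genes listed, which include neither Ppbp nor Pf4, 11 were well above background on Card9-/- replicate 4, against 2 to 9 in wt and 4 to 6 in the rest of Card9-/-. The 6 tested had a mean of 0.04 on that array, -2.87 to -1.66 on the other Card9-/- arrays and -3.61 to -1.76 in wt. Treml1, a receptor of platelet granules, was at 1.04 there and at -6.19 to -2.56 elsewhere. Wt replicate 4, second for Pf4, had the fewest platelet markers above background (2). Itga2b, Gp1ba, Gp5, Gp6, Gp9 and Tubb1 did not pass the filter. All 6 tested had positive differences, 2 at an unadjusted p under 0.05 (Itgb3 and Nrgn, named after their values were seen) and 0 after adjustment. Over all genes tested, 8127 of 18603 had a positive difference and 2.63% were higher at that unadjusted mark.

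Red cell markers were highest on the same array, with a mean of 8.03 in Card9-/- replicate 4, 3.74 to 6.29 in the other Card9-/- arrays and 0.33 to 4.67 in wt (5 of 6 tested), although the protocol includes lysis of red cells. All 5 had positive differences, 1 at an unadjusted p under 0.05, where 2.63% of all genes were higher, and 0 after adjustment. Whether platelets or red cells had a part in the Ppbp level was not tested.

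The mean levels of fibroblast and mesothelial markers, of cells that make Cxcl12 or line the cavity, were highest in wt replicate 3, the one array with Cxcl12 above background. The fibroblast mean was -1.96, -0.85, 1.93 and 0.61 in wt and -0.77 to 1.48 in Card9-/- (4 of 8 tested), and Pdgfra, Pdgfrb and Dpt were not well above background on any array. The mesothelial mean was -0.73 in wt replicate 3 and -3.40 to -1.35 on the other 7 arrays (4 of 8 listed genes tested). Msln and Krt19 were highest in wt replicate 3, at 0.32 and -0.65, but Krt8 (0.92) and Wt1 (-3.50) were higher in Card9-/- replicate 4, at 1.30 and -2.24. All 7 mesothelial genes on the array were well above background in wt replicate 3 and Card9-/- replicate 2. In each list 3 genes had a positive and 1 a negative difference, with 0 at an unadjusted p under 0.05. Endothelial markers were mostly absent, with 1 to 3 of 7 above background per array, and of the 2 tested 1 differed in each direction. Mast cell markers, of another source of these chemokines, had means of 1.42 to 4.83 in wt and 0.71 to 4.46 in Card9-/- (7 of 8 tested; 1 positive and 6 negative differences), with 0 at an unadjusted p under 0.05.

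Lymphocyte markers were read as the last of the cell types. The mean of 8 T cell genes was 0.94 to 1.38 in wt and 1.98 to 3.22 in Card9-/-, and that of 7 natural killer cell genes -0.96 to -0.0056 and 0.46 to 2.96. All 8 and 7 had positive differences, from 0.094 for Cd2 to 3.22 for Cd8a; 6 of each list reached an unadjusted p under 0.05, where 2.63% of all genes were higher at that mark, and 0 passed after adjustment (limma). The mean of 7 B cell genes was 2.00 to 3.37 in wt and 2.89 to 3.70 in Card9-/-, with 6 positive and 1 negative difference and 1 gene at an unadjusted p under 0.05. All 7 B cell genes were well above background on every array, so B cell RNA was present beside that of macrophages.

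**Figure D3:**
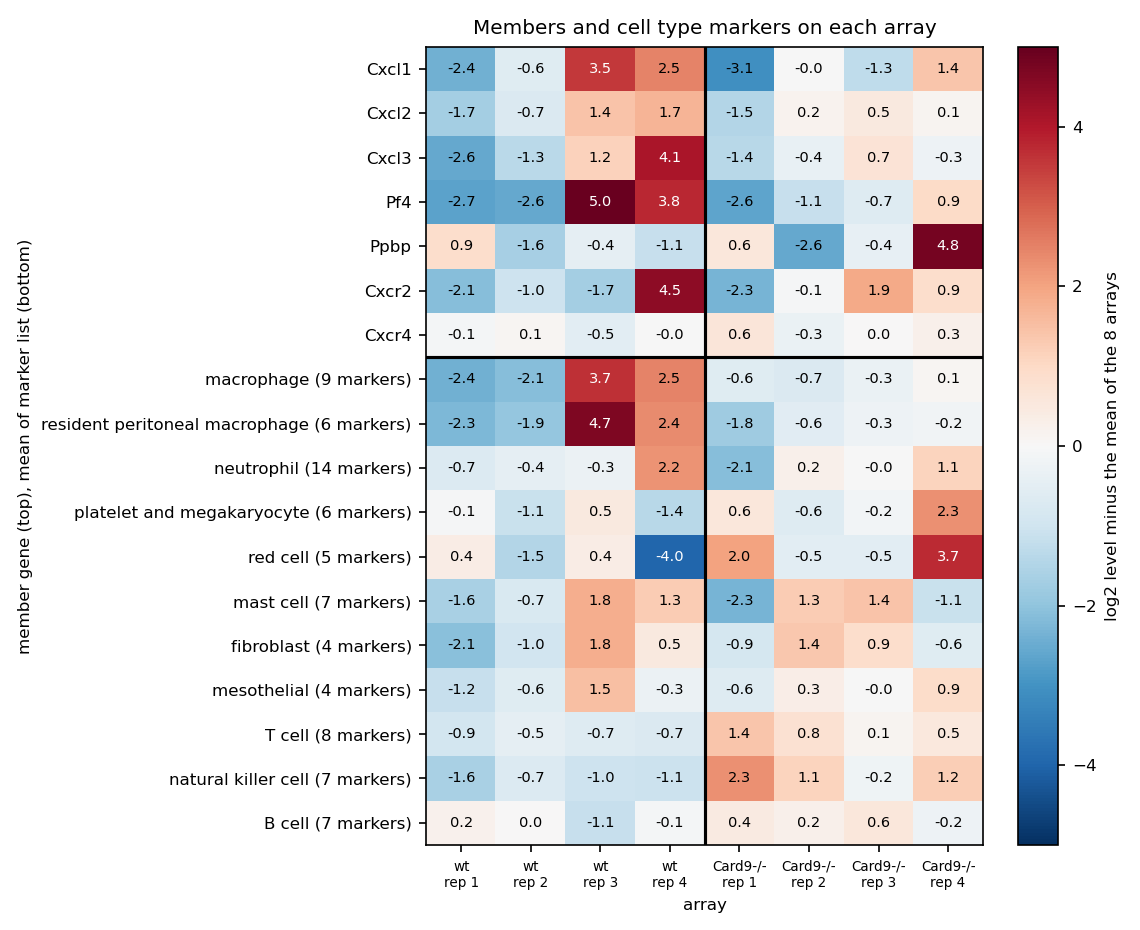
Log2 level of each member tested (top rows) and mean level of each marker list (bottom rows) on the 8 arrays, each row given relative to its own mean over the arrays; red is above and blue below that mean. Wt replicates 3 and 4 are the highest arrays for Cxcl1, Cxcl2, Cxcl3, Pf4 and both macrophage lists. Wt replicate 4 is highest for Cxcr2 and the neutrophil list, and Card9-/- replicate 4 for Ppbp and the platelet and red cell lists. Other arrays are above the mean in some of these rows, such as Card9-/- replicates 3 and 4 for Cxcr2 and Card9-/- replicate 1 for red cells.

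The genes whose levels most resembled each member over the 8 arrays were found among 12447 tested genes with a symbol, members left out. These correlations describe 8 arrays that share genotype, slide and cell content, and carry no test. For Cxcl1 they were Prg4, which encodes the lubricant proteoglycan 4 and is itself in the resident macrophage list (Pearson r = 0.989), and Serpinb1c (0.971). For Cxcl2 they were Crispld2 (0.980) and Hcar2, the niacin receptor (0.976), and for Cxcl3 Mtmr7 (0.996) and Smim3 (0.984).

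Prg4 was at 6.75 and 5.70 in wt replicates 3 and 4, 3.10 in Card9-/- replicate 4 and -4.60 to 0.13 on the other 5 arrays, which is the order of the leading arrays for Cxcl1. For Pf4 the most alike were Ccrl2, an atypical chemoattractant receptor (r = 0.994), and Serpinb2, plasminogen activator inhibitor 2 (0.989). Those of Ppbp were Myl9, a myosin light chain (0.981), and Nrg1 (0.966), both high in Card9-/- replicate 4 alone, at 2.73 and 0.54 against at most -1.09 and -1.42 elsewhere. Those of Cxcr2 were Asprv1, a skin aspartic protease (0.990), and the long noncoding RNA Mirt2 (0.985). Cxcr4, with its small range, had Zfp874a (0.940) and Zbtb37 (0.934), zinc finger genes both.

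Another 5 lists, of related genes and partly shared with the marker lists, were read beside the members. In none did a gene pass the adjusted threshold. Of the other CXC ligands, receptors and decoys, 12 of 15 were tested, with 7 positive and 5 negative differences, a median of 0.059 and 1 gene, Cxcr3, at an unadjusted p under 0.05. Cxcr3, a receptor of activated T and natural killer cells, was at -1.52 to -0.46 in wt and -0.28 to 2.64 in Card9-/- without overlap (difference 2.01, SE 0.59, adjusted p = 0.534). Cxcr6, another lymphocyte receptor, was at -0.76 to 1.65 and 0.74 to 3.53 (difference 1.46, SE 0.68, adjusted p = 0.702). The T cell and natural killer means given above were higher on the Card9-/- arrays too, and their part in both values was not tested.

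The cytokines and regulators that induce or limit these chemokines numbered 20 of 21 tested, 8 positive and 12 negative, with a median of -0.24 and 0 at an unadjusted p under 0.05. The smallest p-values belonged to Zc3h12a, the nuclease regnase-1 that degrades inflammatory mRNAs, at -0.998 to 0.53 in wt and -1.21 to -0.90 in Card9-/- (difference -0.93, SE 0.43, adjusted p = 0.702). Next was Nfkbia, the NF-kB inhibitor and NF-kB target, at 8.21, 7.91, 9.06 and 8.17 in wt and 7.16, 7.62, 7.89 and 7.61 in Card9-/-. Its groups did not overlap, as was so for 5.22% of genes, and its difference was -0.77 (SE 0.37, adjusted p = 0.723).

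The list of other neutrophil attractants and their receptors also holds genes of leukotriene synthesis. Of it 12 of 13 were tested, 1 positive and 11 negative, with a median of -0.54 and 0 at an unadjusted p under 0.05. The anaphylatoxin receptor C3ar1 was at -4.04 to 0.75 in wt and -4.07 to -1.86 in Card9-/- (difference -1.36, SE 1.08, adjusted p = 0.851). Ltc4s, the leukotriene C4 synthase, was at -1.19, -1.09, 6.65 and 3.30 in wt and -0.72 to 1.03 in Card9-/- (difference -1.87, SE 1.57, adjusted p = 0.855). Both were highest in wt replicates 3 and 4, the arrays highest in macrophage markers.

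For adhesion and retention 14 of the 15 names listed were tested, the other being an older name of Grk2; 6 differences were positive and 8 negative (median -0.22), with 1 higher and 2 lower at an unadjusted p under 0.05. Itgal, the alpha chain of LFA-1 on all leukocytes, was at -0.10 to 0.33 in wt and 0.64 to 1.49 in Card9-/- (difference 1.08, SE 0.34, adjusted p = 0.554). Gnai2, the G protein subunit through which chemokine receptors signal, was at 4.59 to 6.65 in wt and 2.58 to 4.48 in Card9-/- (difference -1.85, SE 0.61, adjusted p = 0.567). The third was Icam1, a ligand of LFA-1, at 5.21 to 7.0 and 3.80 to 5.69 (difference -1.33, SE 0.52, adjusted p = 0.628), named after its values were seen.

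Proteases that trim or release chemokines had 10 of 11 tested, 4 positive and 6 negative (median -0.19), with 1 lower at an unadjusted p under 0.05. That was Adam17, a sheddase of cell surface proteins, at 1.84 to 2.33 in wt and 0.85 to 1.48 in Card9-/- (difference -0.84, SE 0.32, adjusted p = 0.617). Dpp4, which clips CXC chemokines such as Cxcl12, was at -0.25 to 0.54 and 0.34 to 0.97 (difference 0.54, SE 0.34, adjusted p = 0.801). Over the 5 lists, the unadjusted share can be set beside the 2.63% of all genes that were higher and 4.59% that were lower at that mark.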

How the data were processed

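The authors deposited one scanner file per array. Its intensity values were background-subtracted by Agilent Feature Extraction (version 10.7.1.1), per the file headers, and not scaled from array to array. A series matrix deposited by the authors holds log2 values and served as an alternative over its 49670 rows that match the scanner files.

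Control spots were removed, log2 of the processed signal was formed and the array's 75th percentile of non-control spots subtracted. Outlier spots (63 to 213 per array) were set to missing and repeated spots averaged. Probes well above background on 3 arrays of either group were kept (28166), and the probe with the highest mean stood for a gene. Probe coordinates are those of the files, on mm9.

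The genotype test was limma's (version 3.58.1, R 4.3.3), with intercept and genotype, two-sided, and Benjamini-Hochberg over 18603 genes. It was tried first on simulated data, which had less spread than the arrays and no shared array effects. That trial therefore does not show how the test fares at the spread of these arrays. Exact permutation over 70 assignments was run for each member besides. All 9 members are named, the 2 genes of smallest p in each related list, and the 2 most alike genes per member. Members and lists were chosen with earlier results of these data known. Alternatives covered background, scaling, filter, probe choice, slide, replicate block, array weights and leaving out arrays.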

Additional observations from a re-analysis of the deposited data

Results flagged for a closer look

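Each of the 11 member probes was read in each genotype. The gap of the highest and lowest array to its neighbour was compared with the range of the 4 arrays. A gap ratio above 0.829 is expected by chance in about 1 of 20 groups. Over 11 probes in both genotypes, flags as few as those below can arise by chance. Their share over all genes was not computed. Cxcr2 in wt had a ratio of 0.833, because wt replicate 4 (2.61) lay far above the next array (-2.89). Cxcl12 at base 1816 in wt had a ratio of 0.899, with wt replicate 3 at -0.60 and the next array at -6.30. The other 3 levels were not well above background, so gap and range rest on them, and at the second Cxcl12 probe (base 5510), where wt replicate 3 was likewise alone above background, the ratio was 0.673, below the limit. The marker levels on both arrays are given with the results above, and no cause was tested.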

How the results depend on the processing

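Under each of the 20 alternatives 0 members passed the adjusted threshold. Of 140 member differences 116 kept their direction and 24 reversed. The highest was 5.39, for Ppbp on slide 1, where it rests on Card9-/- replicate 4 alone. Over all genes 5 passed, and 5 to 7 did with no filter, normexp, median scaling, quantile normalization, the mean of probes, the series matrix or wt replicates 1 and 2 averaged. With slide as a block 0 genes passed (1660 at an unadjusted p under 0.05), within slide 1 there were also 0 (1637), and with array weights 539. Repeating the filter on slide 1, an alternative chosen after seeing the data, let a probe enter through the 1 Card9-/- array alone and gave 234 genes, 233 higher and 1 lower. All settings by slide rest on Card9-/- replicate 4 alone and turned Cxcl1 to 0.63 and Pf4 to 0.077. Array weights turned Cxcl1 to 0.23, Cxcl2 to 0.91, Cxcl3 to 1.25, Pf4 to 1.21, Cxcr4 to -0.099 and Ppbp to -0.054; they gave 0.187 to wt replicate 3 and 7.66 to wt replicate 2. Cxcr2 was -0.0069 with normexp and -0.29 with wt replicates 1 and 2 averaged. The cause of these reversals was not tested.

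Leaving out 1 array gave 5 to 6 genes and 0 members past the threshold. The difference ranged from -2.55 to -0.57 for Cxcl1, -0.96 to 0.17 for Cxcl2 (positive without wt replicate 3, wt replicate 4 or Card9-/- replicate 1), -1.64 to 0.57 for Cxcl3, -0.21 to 2.24 for Ppbp, -2.93 to -0.38 for Pf4, -0.47 to 1.73 for Cxcr2 (5 of 8 reversed) and 0.11 to 0.43 for Cxcr4. The median of all genes, -0.088, was -0.26 with median scaling, 0.030 with normexp and 0.32 with no filter, so member differences of that size have no settled direction. The replicate numbers pair no samples by the labels, and same-numbered arrays deviated together in 1 of 4 pairs (r = -0.13, 0.25, -0.12 and -0.28); with the replicate block 3 genes passed (998 at an unadjusted p under 0.05) and 0 members. Levels near the background limit, as for Cxcl5, Cxcl12 and some arrays of Ppbp and Cxcr2, are the least reliable.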
